A study of Mus musculus with 12 samples.

Results

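Interferon-stimulated effector genes are the genes through which a cell that has sensed interferon makes itself hostile to viruses. A list of 50 of them was followed here by gene name through RNA sequencing of 3T3-L1 cells, out of 39423 genes in the table. All 50 names were found, each as 1 row. 3T3-L1 is a mouse preadipocyte line that turns into fat cells under MDI, a hormone mixture of dexamethasone, a phosphodiesterase inhibitor (3-isobutyl-1-methylxanthine) and insulin. Cells had received siPRMT1, siRNA against the arginine methyltransferase Prmt1, or the control siRNA of the group labelled NC, and were collected at 24 h or 72 h of MDI. That made 4 groups of 3 libraries, 12 in all, from a single line with transient knockdown as the difference at each time. The labels do not say whether the libraries of a group came from separate cultures, and the study's methods speak of independent experiments only in general, so p-values measure the spread between these libraries, which may be technical.

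Type I interferons bind the receptor pair Ifnar1 and Ifnar2, whose kinases Jak1 and Tyk2 phosphorylate Stat2 among other proteins. Stat2 and Irf9 are subunits of ISGF3, a transcription factor that binds the interferon-stimulated response element (ISRE) in the promoters of its targets. The products of these targets degrade viral RNA, bind viral RNA lacking the host's cap methylation, block viral entry or release, and tag proteins with the ubiquitin-like modifier Isg15. Many are also made at a low level in cells that have met no virus, fibroblasts included, through unphosphorylated or tonic forms of the same signal.

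The labels separate the groups at a time point by siRNA and give no batch. The study's supplement lists 3 siRNAs against Prmt1, each of 25 bases, without saying which was used for sequencing; the sequence of the control siRNA was not used here.
siPRMT1-1: ccauguuucacaaucggcaucucuu
siPRMT1-2: ccauuggaaugaggcccaaugccaa
siPRMT1-3: cagccauugaggaccgacaauauaa

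The promoters of the members were searched for the core of the ISRE, TTTCNNTTTC or its reverse complement GAAANNGAAA, on both strands from 250 bases before to 50 bases after the annotated start (RefSeq, GRCm38.p6); matches may overlap each other. Of the 50 members, 38 had a promoter in the table and 19 of these, or 50%, held a match, against 3.99% of the 27025 genes in the table. The element of interferon gamma signalling, TTCNNNGAA, was found in 7 of 38 members and in 9.55% of all genes. The 5 windows below belong to members that were higher after knockdown at 24 h or 72 h, and the last belongs to Isg15. Each is upstream of the start and outside every exon of the count table and of GENCODE, on the strand of the gene, with the ISRE cores in capitals.
Ifit1 (GRCm38, chr19:34640765-34640833, plus strand): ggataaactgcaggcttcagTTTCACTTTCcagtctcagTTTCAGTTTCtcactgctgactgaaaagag
Bst2 (GRCm38, chr8:71537567-71537622, minus strand): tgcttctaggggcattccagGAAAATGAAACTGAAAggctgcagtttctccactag
Gbp7 (GRCm38, chr3:142530263-142530312, plus strand): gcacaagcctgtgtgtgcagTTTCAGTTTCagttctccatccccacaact
Trim30a (GRCm38, chr7:104465200-104465249, minus strand): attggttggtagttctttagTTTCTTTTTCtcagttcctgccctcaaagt
Stat2 (GRCm38, chr10:128270256-128270305, plus strand): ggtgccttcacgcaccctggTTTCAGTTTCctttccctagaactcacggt
Isg15 (GRCm38, chr4:156200855-156200916, minus strand): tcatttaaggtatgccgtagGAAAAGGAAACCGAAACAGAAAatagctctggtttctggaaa
Ifit1 carried 2 cores 104 to 76 bases before its start, and Bst2 carried 2 overlapping cores. Isg15 carried 3 overlapping cores. A match describes the letters only, and its absence in Oasl1, Oasl2, Ifit2, Ifi44, Xaf1 and Irf9 says only that these letters are not in this window.

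Library totals ran from 15116462 to 42357137 counts, with 1 NC library at 24 h the deepest. Prmt1 itself was at 82.9, 83.4 and 91.3 FPKM in NC and at 43.8, 38.6 and 41.4 FPKM in siPRMT1 libraries at 24 h. Its log2 fold change was -1.11 ± 0.08 (SE, adjusted p = 0.00099) at 24 h and -0.88 ± 0.09 (SE, adjusted p = 1.2e-05) at 72 h. The adipocyte markers Pparg, Cebpa and Cd36 were lower after knockdown at 24 h, and Adipoq and Plin1 at 72 h; at 72 h the preadipocyte marker Pdgfra was higher after knockdown (log2 fold change 0.60, adjusted p = 2.0e-05). Col1a2 (0.46) and Col3a1 (0.43) were higher at 72 h under the threshold on size, and the knockdown difference of Pdgfra, Col1a2 and Col3a1 was itself higher at 72 h than at 24 h (interactions of 0.86, 0.69 and 0.56). The summed level of the preadipocyte and fibroblast markers was 704 to 753 FPKM in NC and 874 to 990.3 FPKM in siPRMT1 libraries at 72 h. Most of this sum came from the collagens. On the same list, Pdgfrb was also higher at 72 h at an unadjusted p under 0.05 (edgeR). Dlk1, Col1a1 and Thy1 overlapped between the groups at 72 h, with Dlk1 averaging 21.5 FPKM in NC and 20.6 FPKM in siPRMT1 libraries. At 24 h no gene of this list was called by edgeR or DESeq2. Pdgfra, Col1a1 and Col1a2 were then lower at an unadjusted p under 0.05 (edgeR). Krt8 (-0.70), Krt18 (-1.29) and Cdh5 (-1.19), from the endothelial and epithelial list, were lower at 72 h. The part of differentiation state or cell mixture in the values below was not tested. Of 7 markers of immune cells, the defining Ptprc had no count in any library, and none of the 3 tested at 24 h and the 4 tested at 72 h was called by edgeR or DESeq2 in the knockdown comparisons (1 of them, Cd68, had an unadjusted p under 0.05, at 24 h). Their summed level was 4.04 to 6.23 FPKM in NC and 5.19 to 5.34 FPKM in siPRMT1 libraries at 24 h. NC replicate 3 at 24 h stood apart from the other two NC libraries of that time, with a chi-square per gene of 50.6 and 30.8 against them where they had 5.30 between them. Among NC at 24 h it was the lowest library for 22 and the highest for 20 of the 45 members tested. Without it 25 members were called higher at 24 h, including 21 of the 22 called with it, Herc6 being lost; all 8 called interactions kept their call. In bulk RNA, a change in the number of responding cells and a change in RNA per cell cannot be told apart.

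In FPKM, a level per kilobase of gene length, the members ranged from 0 to 600.1. Ifitm2 and Ifitm3, membrane proteins that stop virus particles from fusing with the cell, were the highest. Ifitm2 (chr7:140954839-140955961) was at 558, 600.1 and 551 FPKM in NC at 24 h and at 273, 309 and 321 FPKM in NC at 72 h. Ifitm3 (chr7:141009590-141010744) was at 535, 541 and 484 FPKM in NC at 24 h and at 119, 128 and 158 FPKM at 72 h. Lgals3bp, Ifi27 and Bst2 were next by the mean over the 12 libraries and stayed under 100 FPKM in every library. Their order differed between groups: Ifi27 averaged 42.4, Lgals3bp 28.5 and Bst2 27.0 FPKM in NC at 24 h, where the ranges of Lgals3bp and Bst2 overlapped, and Bst2 had the highest mean of them in siPRMT1 libraries at 24 h, with 73.4 FPKM. In NC libraries 29 members averaged at least 1 FPKM at 24 h and 24 did at 72 h, against 37 and 28 in siPRMT1 libraries. The mean was highest in the siPRMT1 group at 24 h for 38 of the 50 members. These include Oas3, Rsad2 and Igtp, which had too few counts to be tested. The share of all genes with their highest mean in this group is not given here. All members together took 0.137% ± 0.0020 of all counts in NC and 0.159% ± 0.0101 in siPRMT1 libraries at 24 h, and 0.0952% ± 0.0033 and 0.103% ± 0.0052 at 72 h (SD, n = 3). Without Ifitm2 and Ifitm3, the members together took 0.0673% ± 0.0014 of all counts in NC at 24 h and 0.0983% ± 0.0088 in siPRMT1 (SD, n = 3). At 72 h the shares were 0.0676% ± 0.00081 and 0.0715% ± 0.0030.

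**Figure D1:**
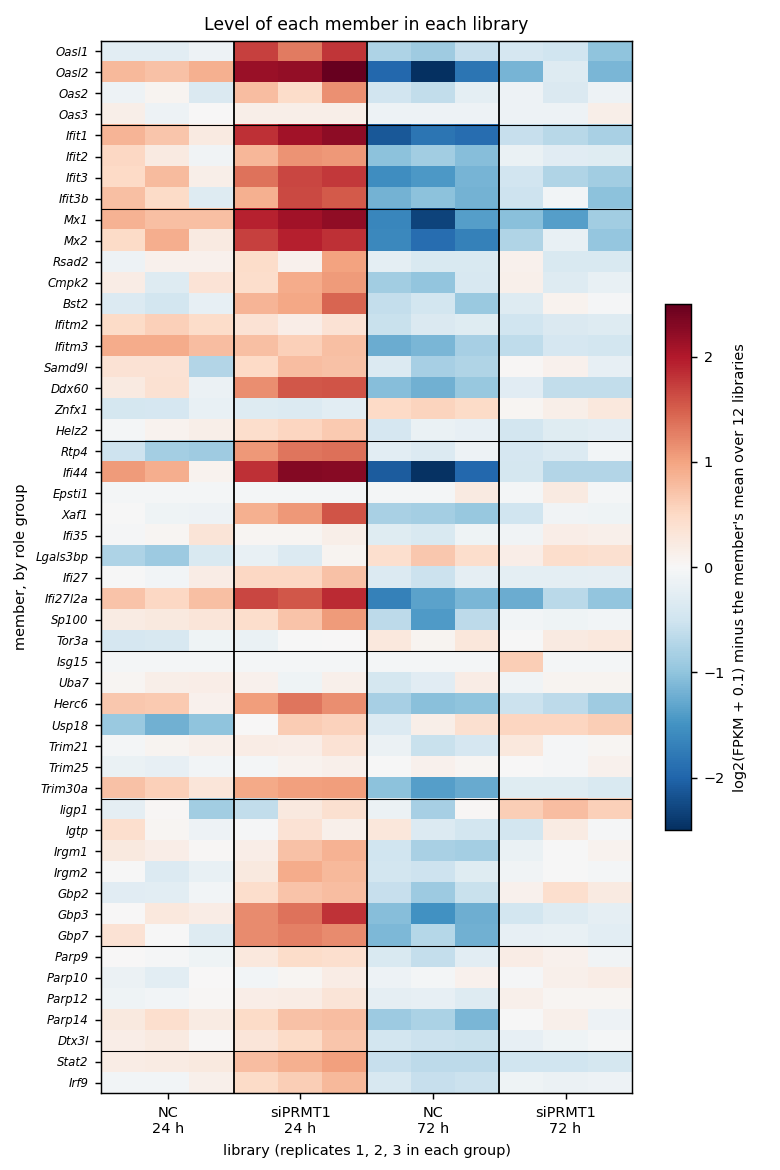
Level of the 50 members (rows, by role group) in the 12 libraries (columns, replicates 1 to 3 in each group), as log2(FPKM + 0.1) minus the member's mean over all libraries. The siPRMT1 libraries at 24 h hold the highest mean of 38 members, and most rows are paler or blue at 72 h.

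After knockdown at 24 h the members moved mainly upward. Of 45 members that passed the filter on low counts, 22 rose (edgeR, adjusted p under 0.05 over all genes and a log2 fold change over 0.5), against a background of 1.95% of the 13689 genes tested. None fell, against 1.61% of all genes, and 2 members, Ifitm2 and Ifitm3, had a lower level at an unadjusted p under 0.05; DESeq2 also called none lower. The log2 fold change was positive for 40 of the 45, with a median of 0.64 beside 0.0096 over all genes. The FPKM of all siPRMT1 libraries lay above that of all NC libraries for 36 members, against a background of 19.8%. Oasl1 and Oas2 passed the filter only through the siPRMT1 group; without them 20 members were called, and with no filter on low counts 24 were. On the deposited FPKM values, limma called 18 members higher, against a background of 1.5%. The list was chosen with earlier results of these data known. Comparisons of its calls with a background, in this and later paragraphs, therefore describe the list and do not test it.

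**Figure D2:**
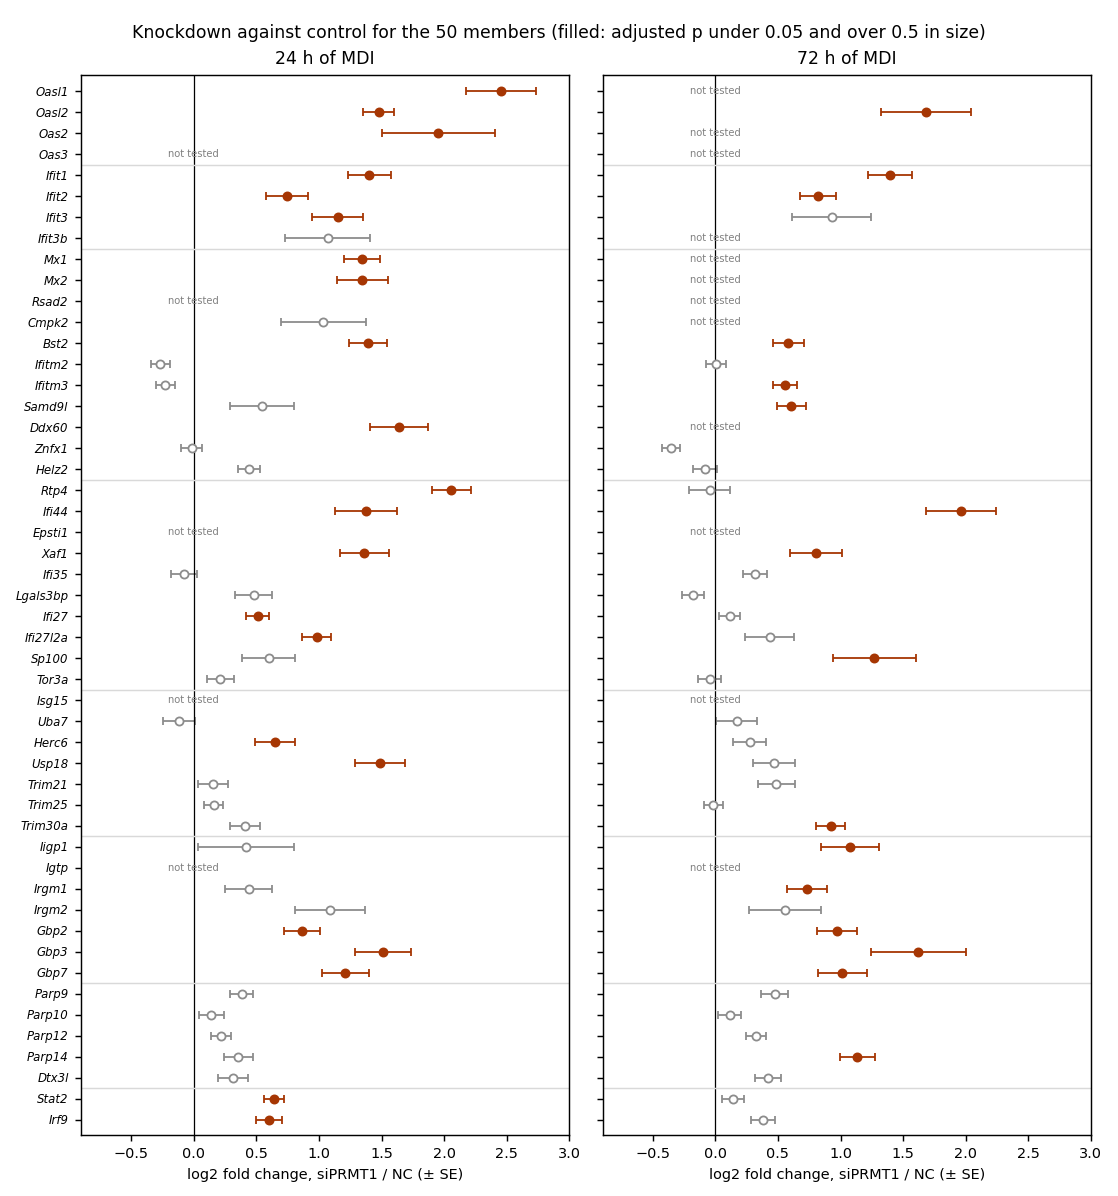
Log2 fold change of siPRMT1 over NC with its SE for each member at 24 h (left) and 72 h (right), in role groups parted by grey lines; filled points passed the test and open points did not. At 24 h 22 members passed and at 72 h 16, all to the right of 0.

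The OAS family makes or resembles the enzymes that synthesise 2'-5' oligoadenylates, the activators of RNase L, and Oasl2 rose at 24 h. Oasl1 and Oas2, which entered the test only through their siPRMT1 level, were also called by edgeR; DESeq2 gave Oas2 no adjusted p. Oasl2 (chr5:114896934-114912245), a 2'-5' oligoadenylate synthetase-like protein, was at 2.03, 1.91 and 2.14 FPKM in NC and at 5.3, 5.42 and 6.83 FPKM in siPRMT1 libraries. The groups lay well apart, with a log2 fold change of 1.48 ± 0.12 (SE, adjusted p = 0.0022). Its neighbour Oasl1 (chr5:114923177-114937912), an inhibitor of Irf7 translation, was far lower, at 0.10, 0.10 and 0.12 FPKM in NC and at 0.68, 0.49 and 0.73 FPKM in siPRMT1 libraries. In reads this was 10, 5 and 6 against 36, 30 and 40 counts, a log2 fold change of 2.46 ± 0.28 (SE, adjusted p = 0.0035). Oas2 had 9, 7 and 2 counts in NC and 19, 15 and 30 in siPRMT1 libraries, and its call (log2 fold change 1.95 ± 0.45 (SE), adjusted p = 0.037) held in only 1 of 6 fits that each left out 1 library. Oas3 had 13 counts over the 12 libraries and was not tested.

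The 4 IFIT genes lie within 99.5 kb of chromosome 19 (chr19:34550549-34650009), and the product of Ifit1 binds viral RNA that lacks the host's cap methylation. Ifit1 was at 4.37, 3.89 and 2.8 FPKM in NC and at 8.66, 10.4 and 11.5 FPKM in siPRMT1 libraries at 24 h. It rose by a log2 fold change of 1.40 ± 0.17 (SE, adjusted p = 0.0046), with every siPRMT1 library above every NC library. Ifit3 was at 0.85, 1.07 and 0.64 FPKM in NC and at 1.62, 2.05 and 2.2 FPKM in siPRMT1 libraries (log2 fold change 1.15 ± 0.20 (SE), adjusted p = 0.017). Ifit2, which also binds RNA, was at 1.96, 1.59 and 1.26 FPKM in NC and at 2.47, 3.03 and 2.94 FPKM in siPRMT1 libraries (0.75 ± 0.17 on the log2 scale (SE), adjusted p = 0.035). Ifit3b had a log2 fold change of 1.07 and an adjusted p of 0.097. Ifit3 and Ifit3b are near-identical copies, and the 84 bases around their ISRE cores were identical at 100% of positions; how the authors' counting shared reads between them is not given in the sources used here.

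Among 11 antiviral effectors, 4 rose at 24 h. Bst2 (chr8:71534259-71537437), the tetherin that holds budding virus at the cell surface, was at 26.9, 24.8 and 29.4 FPKM in NC and at 60.9, 66.5 and 92.7 FPKM in siPRMT1 libraries. Every siPRMT1 library lay far above every NC library, and the log2 fold change was 1.39 ± 0.15 (SE, adjusted p = 0.0035). Mx1 (chr16:97447035-97462906), a dynamin-like GTPase that traps viral nucleocapsids, was at 0.81, 0.74 and 0.73 FPKM in NC and at 1.78, 2.04 and 2.22 FPKM in siPRMT1 libraries (log2 fold change 1.34 ± 0.14 (SE), adjusted p = 0.003). Its neighbour Mx2 rose by 1.35 on the log2 scale. Ddx60, an RNA helicase that assists the sensor Ddx58, was at 0.17, 0.20 and 0.11 FPKM in NC and at 0.42, 0.58 and 0.59 FPKM in siPRMT1 libraries (log2 fold change 1.64 ± 0.23 (SE), adjusted p = 0.0076). These 3 were among the lowly expressed members, at about 1 FPKM or less in NC.

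The 2 highest members did not share this direction at 24 h. Ifitm2 was at 512, 445 and 513 FPKM and Ifitm3 at 479, 427 and 475 FPKM in siPRMT1 libraries, all below the NC libraries given above, with log2 fold changes of -0.27 (adjusted p = 0.067) and -0.23 (adjusted p = 0.11). Helz2, a helicase and nuclear receptor coactivator, was at 3.49, 3.83 and 4.01 FPKM in NC and at 4.91, 5.25 and 5.73 FPKM in siPRMT1 libraries. The groups did not overlap and the adjusted p was 0.022, but the log2 fold change of 0.44 was under the threshold. Samd9l, which restrains translation in infected cells, was at 9.81, 9.8 and 4.58 FPKM in NC and at 10.8, 13.2 and 12.8 FPKM in siPRMT1 libraries, and 1 low NC library widened its spread (log2 fold change 0.55 ± 0.26 (SE), adjusted p = 0.23). Cmpk2, a mitochondrial nucleotide kinase, had a log2 fold change of 1.04 and an adjusted p of 0.10. Znfx1, a helicase that senses viral RNA at mitochondria, stood at -0.02. Rsad2, the viperin that makes a chain-terminating nucleotide, had 40 counts over the 12 libraries and was not tested.

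Of 10 other interferon-inducible genes, 5 rose at 24 h, and the Rtp4 rise had the smallest p of all 45 members tested. Rtp4 (chr16:23601293-23614222), a chaperone of receptor transport that also restrains antiviral responses, was at 1.04, 0.81 and 0.79 FPKM in NC and at 3.4, 4.07 and 4.16 FPKM in siPRMT1 libraries. The log2 fold change was 2.06 ± 0.16 (SE, adjusted p = 0.0015), over a wide gap between the groups. Ifi27l2a, a small mitochondrial protein, was at 11.2, 9.73 and 11.5 FPKM in NC and at 21.6, 19.9 and 24.9 FPKM in siPRMT1 libraries (log2 fold change 0.98 ± 0.11 (SE), adjusted p = 0.0036). Xaf1, a pro-apoptotic antagonist of the inhibitor Xiap, was at 0.68, 0.63 and 0.62 FPKM in NC and at 1.36, 1.58 and 2.24 FPKM in siPRMT1 libraries (1.36 ± 0.20 on the log2 scale (SE), adjusted p = 0.0081). Ifi44 rose by 1.38 and Ifi27 by 0.51 on the log2 scale, the latter held in 1 of 6 fits without a library. Ifi27 and Ifi27l2a lie on opposite strands and share 110 exon bases, 12.5% of those of Ifi27l2a, and the strand setting of the counts is not given in the sources used here. Lgals3bp, a secreted galectin-binding glycoprotein, was at 26.5, 24.2 and 34.8 FPKM in NC and at 39.8, 35.8 and 47.5 FPKM in siPRMT1 libraries, and did not pass (log2 fold change 0.48 ± 0.14 (SE), adjusted p = 0.085). Sp100 (0.60), Tor3a (0.21) and Ifi35 (-0.08) did not pass either, and Epsti1 had 2 counts in all.

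Among the 7 genes of Isg15 conjugation and the TRIM ligases, 2 rose at 24 h. Usp18 (chr6:121245906-121270917), the protease that removes Isg15 and also damps signalling at the interferon receptor, was at 1.04, 0.84 and 0.98 FPKM in NC and at 2.08, 3.24 and 3.1 FPKM in siPRMT1 libraries. Its log2 fold change was 1.49 ± 0.20 (SE, adjusted p = 0.0064). Herc6, the main Isg15 ligase of the mouse, was at 3.77, 3.69 and 2.51 FPKM in NC and at 4.87, 6 and 5.35 FPKM in siPRMT1 libraries. Its adjusted p of 0.048 lay just under the threshold, and the call (log2 fold change 0.65 ± 0.16 (SE)) was lost in each of the 6 fits without a library. Trim30a, a ubiquitin ligase that limits NF-kB signalling, was at 5.53, 5.02 and 4.06 FPKM in NC and at 6.44, 6.78 and 6.94 FPKM in siPRMT1 libraries (log2 fold change 0.41 ± 0.12 (SE), adjusted p = 0.081). Uba7, the activating enzyme of Isg15, stood at -0.12, and the ligases Trim21 and Trim25 at 0.15 and 0.16 on the log2 scale.

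Isg15 itself could not be followed. Its row held 1 count over all 12 libraries, although it is usually among the most abundant transcripts of an interferon response. Of its 756 exon bases, 643 (85.1%) are shared with LOC108168990 on the opposite strand, which held 129 counts. A row of 1 count allows no statement on its level, and how reads of overlapping genes were treated is not given in the sources used here.

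Of the 7 interferon-inducible GTPases, which attack the membranes around intracellular parasites and bacteria, the 3 guanylate-binding proteins rose at 24 h. Gbp2, Gbp3 and Gbp7 lie within 108 kb of chromosome 3 (chr3:142530336-142638008). Gbp3 was at 0.30, 0.38 and 0.35 FPKM in NC and at 0.80, 0.92 and 1.29 FPKM in siPRMT1 libraries (log2 fold change 1.51 ± 0.22 (SE), adjusted p = 0.0087). Gbp7 was at 0.85, 0.63 and 0.49 FPKM in NC and at 1.58, 1.67 and 1.57 FPKM in siPRMT1 libraries (1.21 ± 0.19 on the log2 scale (SE), adjusted p = 0.011). Gbp2 was at 1.25, 1.27 and 1.47 FPKM in NC and at 2.13, 2.62 and 2.74 FPKM in siPRMT1 libraries (0.86 ± 0.14 on the log2 scale (SE), adjusted p = 0.013). For each of the 3, all siPRMT1 libraries lay above all NC libraries. The immunity-related GTPases Irgm2 (log2 fold change 1.09, adjusted p = 0.053), Irgm1 (0.44, adjusted p = 0.20) and Iigp1 (0.41, adjusted p = 0.56) did not pass, and Igtp had 43 counts in all and was not tested. Of the reads of Irgm1, Irgm2 and Igtp, 13.5%, 32.1% and 49.4% stood under separate rows of the same name on alternate-locus scaffolds, as did 36.7% of those of Trim25.

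**Figure D3:**
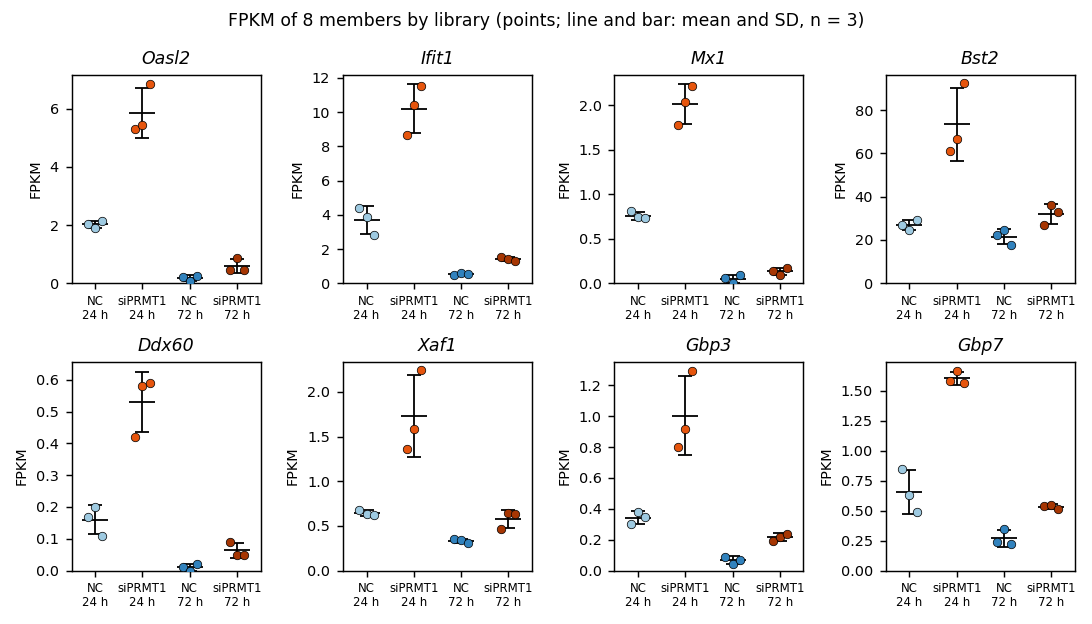
FPKM of 8 members in the 12 libraries: points are libraries, and the line and bar are the mean and SD of 3. In each panel all siPRMT1 libraries at 24 h lie above all NC libraries at 24 h, and for each siRNA all libraries at 72 h lie below all libraries at 24 h.

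None of the 4 PARP genes, which attach ADP-ribose to proteins, nor Dtx3l, the ubiquitin ligase partner of Parp9, was called at 24 h by edgeR or DESeq2. All 5 log2 fold changes were positive, and 4 (Parp9, Parp12, Parp14 and Dtx3l) had an unadjusted p under 0.05. Parp9 was at 4.97, 4.87 and 4.6 FPKM in NC and at 5.96, 6.84 and 6.71 FPKM in siPRMT1 libraries, a log2 fold change of 0.38 (adjusted p = 0.039) that was under the threshold on size. Parp12 was at 8.96, 9.24 and 9.87 FPKM in NC and at 10.8, 10.9 and 12 FPKM in siPRMT1 libraries (log2 fold change 0.22, adjusted p = 0.13). Parp9 and Dtx3l share 334 exon bases on opposite strands.

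Both ISGF3 subunits on the list rose at 24 h. Stat2 (chr10:128270559-128292852) was at 6.58, 6.74 and 6.94 FPKM in NC and at 9.92, 10.9 and 11.9 FPKM in siPRMT1 libraries, a tight set with a log2 fold change of 0.64 ± 0.08 (SE, adjusted p = 0.0057). Irf9 (chr14:55603985-55610030), the DNA-binding subunit, was at 6.46, 6.43 and 7.37 FPKM in NC and at 9.5, 10.4 and 11.9 FPKM in siPRMT1 libraries (log2 fold change 0.60 ± 0.10 (SE), adjusted p = 0.016).

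Among the siPRMT1 libraries at 24 h, replicate 1 was the lowest for 33 of the 45 members tested and replicate 3 the highest for 34. Of the 22 calls at 24 h, 10 held in each of the 6 fits that left out 1 library, those of Oasl1, Oasl2, Ifit1, Mx1, Bst2, Rtp4, Xaf1, Ifi27l2a, Gbp3 and Stat2. The count was 14 without NC replicate 2 or without siPRMT1 replicate 1, 11 without siPRMT1 replicate 2 and 10 without siPRMT1 replicate 3.

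At 72 h the members again moved mainly upward. Of 38 members tested, 16 rose, against a background of 2.84% of the 14039 genes tested. None fell, against 3.8% of all genes, by edgeR or DESeq2; Znfx1 alone was lower at an unadjusted p under 0.05. The log2 fold change was positive for 32 of the 38, with a median of 0.48 beside 0.0073 over all genes. For 26 members all siPRMT1 libraries lay above all NC libraries in FPKM, against a background of 16.7%. Oasl2, Ifi44, Sp100 and Gbp3 passed the filter only through the siPRMT1 group; without them 12 members were called, and with no filter on low counts 19 were. With at least 10 counts asked of every library, 11 were called. On FPKM, limma called 5 members higher, against a background of 1.28%.

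The members with the smallest p at 72 h came from several families. Parp14, an ADP-ribosyltransferase that modulates Stat signalling, was at 0.38, 0.42 and 0.31 FPKM in NC and at 0.79, 0.88 and 0.73 FPKM in siPRMT1 libraries (log2 fold change 1.13 ± 0.14 (SE), adjusted p = 6.0e-05). Ifit1 was at 0.47, 0.6 and 0.56 FPKM in NC and at 1.56, 1.42 and 1.31 FPKM in siPRMT1 libraries, with the groups again apart (1.40 ± 0.18 on the log2 scale (SE), adjusted p = 7.1e-05). Trim30a was at 1.57, 1.21 and 1.32 FPKM in NC and at 2.65, 2.66 and 2.51 FPKM in siPRMT1 libraries (0.92 ± 0.12 on the log2 scale (SE), adjusted p = 8.3e-05). Ifi44, a protein that restrains virus growth by a poorly known route, had the largest log2 fold change among the members called at 72 h. It entered the test only through its siPRMT1 level, with 9, 4 and 12 counts in NC and 42, 40 and 38 in siPRMT1 libraries. It was at 0.15, 0.09 and 0.17 FPKM in NC and at 0.67, 0.53 and 0.53 FPKM in siPRMT1 libraries (1.96 ± 0.28 on the log2 scale (SE), adjusted p = 0.00023). The abundant Ifitm3 rose from 119, 128 and 158 FPKM in NC to 182, 212 and 205 FPKM in siPRMT1 libraries (log2 fold change 0.55 ± 0.10 (SE), adjusted p = 0.0011), while Ifitm2 was at 281, 310.4 and 317 FPKM, within its NC range.

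The guanylate-binding proteins rose at 72 h as well. Gbp2 was at 1.01, 0.78 and 1.02 FPKM in NC and at 1.68, 2.12 and 1.82 FPKM in siPRMT1 libraries (log2 fold change 0.97 ± 0.16 (SE), adjusted p = 0.00063). Gbp7 was at 0.24, 0.35 and 0.22 FPKM in NC and at 0.54, 0.55 and 0.51 FPKM in siPRMT1 libraries (1.01 ± 0.19 on the log2 scale (SE), adjusted p = 0.0022). Gbp3 was at 0.09, 0.04 and 0.07 FPKM in NC and at 0.19, 0.22 and 0.24 FPKM in siPRMT1 libraries (1.62 ± 0.38 on the log2 scale (SE), adjusted p = 0.0087). The 3 ranges stayed apart between the groups. Of the other GTPases, Irgm1 (0.73) and Iigp1 (1.08) rose.

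The remaining calls at 72 h were those of Oasl2, Ifit2, Samd9l, Bst2, Xaf1 and Sp100. Oasl2 was at 0.21, 0.06 and 0.24 FPKM in NC and at 0.44, 0.86 and 0.45 FPKM in siPRMT1 libraries, with a wide relative spread (log2 fold change 1.68 ± 0.36 (SE), adjusted p = 0.0047). Ifit2 was at 0.61, 0.69 and 0.59 FPKM in NC and at 1.18, 1.09 and 1.06 FPKM in siPRMT1 libraries (0.82 ± 0.14 on the log2 scale (SE), adjusted p = 0.0011). Samd9l was at 5.96, 4.23 and 4.52 FPKM in NC and at 7.77, 8.19 and 6.58 FPKM in siPRMT1 libraries (0.61 ± 0.12 on the log2 scale (SE), adjusted p = 0.0022). None of these 3 genes overlapped between groups. Bst2 was at 22.4, 24.6 and 17.7 FPKM in NC and at 27.1, 36.2 and 33.1 FPKM in siPRMT1 libraries, a smaller difference than at 24 h (0.58 ± 0.13 on the log2 scale (SE), adjusted p = 0.0051). Xaf1 was at 0.35, 0.34 and 0.31 FPKM in NC and at 0.46, 0.64 and 0.63 FPKM in siPRMT1 libraries (0.80 ± 0.21 on the log2 scale (SE), adjusted p = 0.016). Sp100, a component of nuclear bodies, rose by 1.27 on the log2 scale. Of the 16 calls, 12 held in each of 6 fits without a library; Sp100 lost its call without NC replicate 2, Ifitm3 without NC replicate 1, Bst2 without NC replicate 3 or siPRMT1 replicate 2, and Xaf1 without NC replicate 3, siPRMT1 replicate 2 or siPRMT1 replicate 3.

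Several members passed on adjusted p at 72 h with a change too small to be called. Parp9 was at 3.79, 3.27 and 4.12 FPKM in NC and at 5.67, 5.36 and 4.65 FPKM in siPRMT1 libraries, a log2 fold change of 0.47 (adjusted p = 0.0073). Irf9 was at 5.06, 4.5 and 4.61 FPKM in NC and at 6.29, 6.11 and 6.14 FPKM in siPRMT1 libraries, a log2 fold change of 0.38 (adjusted p = 0.011). Trim21, a cytosolic antibody receptor, was at 1.64, 1.21 and 1.34 FPKM in NC and at 2.24, 1.8 and 1.9 FPKM in siPRMT1 libraries (0.49 on the log2 scale, adjusted p = 0.035). Znfx1 stood in the other direction, at 18.9, 19.7 and 18.8 FPKM in NC and at 13.9, 14.9 and 16.1 FPKM in siPRMT1 libraries (log2 fold change -0.36, adjusted p = 0.0032). Parp12 (0.33), Dtx3l (0.42) and Ifi35 (0.32) complete the 7 members in this position. Stat2 did not pass at 72 h, at 3.84, 3.67 and 3.67 FPKM in NC and at 4.11, 4.06 and 4.23 FPKM in siPRMT1 libraries (log2 fold change 0.14, adjusted p = 0.28).

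The filter removed 12 members at 72 h: Oasl1, Oas2, Oas3, Ifit3b, Mx1, Mx2, Rsad2, Cmpk2, Ddx60, Epsti1, Isg15 and Igtp. Several of these had risen at 24 h, and their counts at 72 h were few. Ddx60 had 2, 0 and 3 counts in NC and 14, 9 and 8 in siPRMT1 libraries, and Mx2 had 3, 1 and 3 against 10, 21 and 9. With no filter, the adjusted p was 0.0043 for Ddx60 and 0.0011 for Mx2. Mx1 had 3, 0 and 6 counts in NC and 8, 6 and 11 in siPRMT1 libraries, and Oasl1 had 2, 1 and 3 against 4, 4 and 1. A difference in Oasl1 was not detectable at this depth.

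Between the time points, 9 members were called at both, which is 40.9% of the calls at 24 h and 56.2% of those at 72 h. The share of all genes called at both times is not given here, so this overlap is a description only. The 9 members were Oasl2, Ifit1, Ifit2, Bst2, Ifi44, Xaf1, Gbp2, Gbp3 and Gbp7. Of these 9, Oasl2, Ifi44 and Gbp3 passed the filter at 72 h only through the siPRMT1 group. Of the 13 called at 24 h and not at 72 h, 5 were not tested at 72 h, and 7 were called at 72 h and not at 24 h. The test of the difference itself, the interaction of siRNA and time over all 12 libraries, called 8 of 45 members. For 5 the knockdown difference was lower at 72 h than at 24 h (background 3.47% of 14612 genes), and for 3 it was higher (background 4.77%).

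Rtp4 had the smallest p of the interaction. It was at 1.27, 1.2 and 1.41 FPKM in NC and at 1.12, 1.2 and 1.47 FPKM in siPRMT1 libraries at 72 h, overlapping sets in place of the wide gap at 24 h. The interaction was -2.08 ± 0.22 (SE, log2 scale, adjusted p = 4.5e-05), and it held in each of 12 fits without a library. Usp18 was at 1.6, 2.28 and 2.74 FPKM in NC and at 3.04, 3.03 and 3.18 FPKM in siPRMT1 libraries at 72 h, and its interaction was -1 ± 0.28 (SE, adjusted p = 0.033). Those of Bst2 (-0.79), Lgals3bp (-0.64) and Helz2 (-0.51) were also negative. Helz2 was at 2.68, 3.21 and 3.12 FPKM in NC and at 2.6, 2.92 and 3.01 FPKM in siPRMT1 libraries at 72 h, so that the separation at 24 h was gone. Lgals3bp was at 61.1, 72.5 and 61.9 FPKM in NC and at 51.3, 62.1 and 59.8 FPKM in siPRMT1 libraries at 72 h, overlapping sets at a higher level than at 24 h. The calls of these 4 genes were each lost in at least 6 of 12 fits without a library.

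In the positive direction, Ifitm3 had an interaction of 0.80 ± 0.14 (SE, adjusted p = 0.0018), Parp14 of 0.79 ± 0.18 (SE, adjusted p = 0.012) and Trim30a of 0.53 ± 0.16 (SE, adjusted p = 0.047). At 24 h Parp14 was at 0.97, 1.1 and 0.94 FPKM in NC and at 1.16, 1.39 and 1.44 FPKM in siPRMT1 libraries, closer together than at 72 h. The calls of Ifitm3 and Parp14 held in each of 12 fits without a library, and that of Trim30a in 2. Stat2 had an adjusted p of 0.014 with an interaction of -0.48, under the threshold on size. For Oasl2, Ifit1, Ifit2, Gbp2, Gbp3 and Gbp7 the interaction lay between -0.18 and 0.23, with SEs of 0.22 to 0.41. Ifi44 and Xaf1, also called at both times, had fold changes further apart at the 2 times, without a called interaction. A missing call does not show that the knockdown differences of a member were equal at the 2 times.

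**Figure D4:**
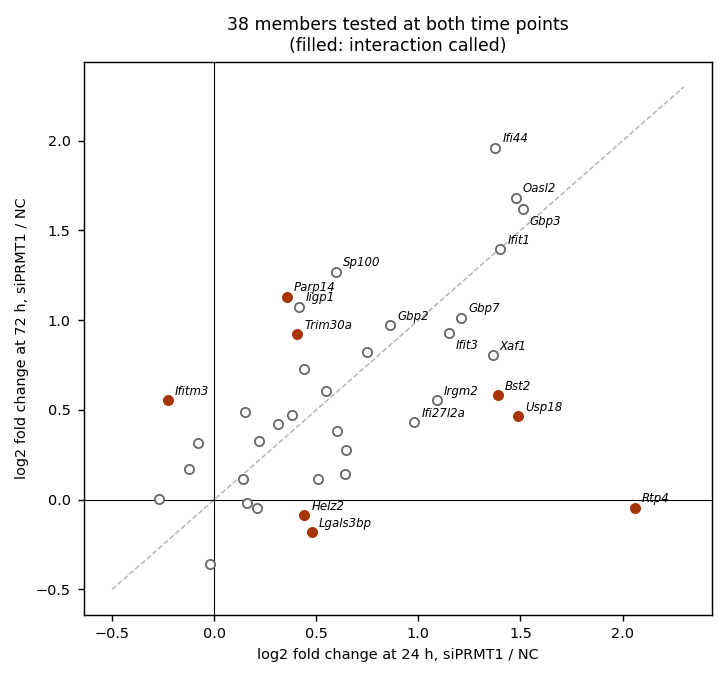
Log2 fold change of siPRMT1 over NC at 24 h (x) and 72 h (y) for the 38 members tested at both times; filled points have a called interaction and the dashed line marks equal values. Rtp4 lies at 2.06 and -0.04, far under the line, and Ifitm3, Parp14 and Trim30a lie above it.

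**Figure D5:**
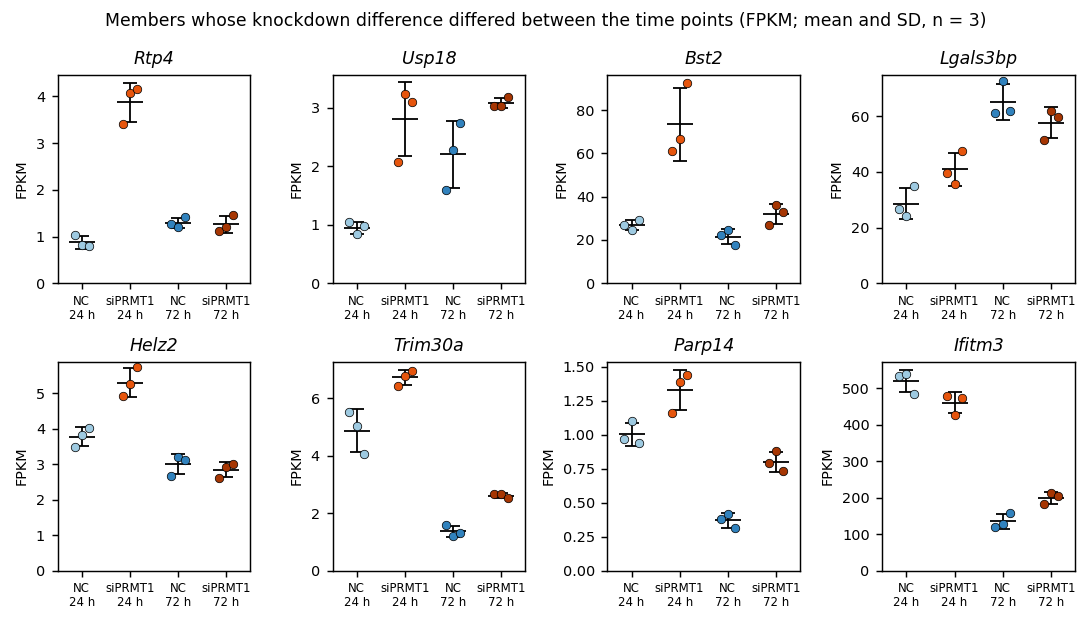
FPKM of the 8 members with a called interaction in the 12 libraries (points), with the mean and SD of 3. The first 5 panels show the larger separation at 24 h, and the last 3 show siPRMT1 above NC at 72 h.

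From 24 h to 72 h of MDI most members fell, with or without knockdown. In NC cells 26 of 42 tested members fell and 3 rose, against backgrounds of 20.4% and 22.7% of 13829 genes, and the median log2 fold change was -0.86. In siPRMT1 cells 32 of 45 fell and 1 rose, against backgrounds of 17.4% and 19%, with a median of -1.12. Some of these members passed the filter on low counts only through their level at 24 h. In NC libraries at 72 h, Mx1, Mx2, Ddx60, Ifit3b and Gbp3 had at most 6 counts. Oasl2 had 13, 3 and 18 counts there, Ifi44 had 9, 4 and 12, and Sp100 had 12, 2 and 14. In siPRMT1 libraries at 72 h, Oasl1 and Oas2 had at most 5, and Mx1 had 8, 6 and 11. With at least 10 counts asked of every library, fewer members fell in NC, as given in the last section. The antiviral GTPase Mx1 fell by 3.80 on the log2 scale in NC and by 3.97 in siPRMT1 cells. In the same order, the log2 fold change was -3.54 and -3.31 for Oasl2, -3.59 and -3.00 for Ifi44, and -2.85 and -2.85 for Ifit1. Ifitm3 stood at -2.01 and -1.22 and Stat2 at -0.93 and -1.41. The members that rose in NC were Znfx1 (0.79), Lgals3bp (1.12) and Usp18 (1.13), and in siPRMT1 cells Iigp1 (0.68). Of the PARP genes and Dtx3l, Parp14 and Dtx3l fell in both, and Parp10 stood at 0.04 in NC. Over the same interval all 7 adipocyte markers rose in both, so the course of the members and differentiation cannot be told apart.

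Of 41 genes for ligands, receptors, kinases, transcription factors, inhibitors and sensors upstream of the members, 28 were tested at 24 h. Of these, 2 rose (7.14%, against 1.95% of all genes) and 1 fell (3.57%, against 1.61%). At 72 h 27 were tested, of which 1 rose and 1 fell (3.70% each, against 2.84% and 3.8%). Of 11 interferon ligand genes, 7 had no count in any library, and the 11 together had 13 counts over the 12 libraries, of which Ifne had 8 and Ifnb1 had 1. None was tested. The highest count of a ligand in a library was 3, and a floor of 3 counts was 0.0708 CPM in the deepest and 0.198 CPM in the shallowest library; this covers counting error only. The receptor chains Ifnar1 (log2 fold change 0.06 at 24 h and 0.06 at 72 h) and Ifnar2 (0.13 and -0.0035) were not called. Ifngr1, a chain of the interferon gamma receptor, fell by 0.55 on the log2 scale at 24 h (adjusted p = 0.0052).

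Of 9 kinases and transcription factors, 8 were tested and none was called at either time by edgeR or DESeq2; at an unadjusted p under 0.05, Irf1 and Irf7 were higher and Jak1 lower at 24 h, and Jak1 higher at 72 h. Irf3 had a log2 fold change of -0.38 at 72 h with an adjusted p of 0.0043, under the threshold on size. Irf7, the factor that amplifies interferon production, was at 0.9, 0.6 and 1.02 FPKM in NC and at 1.22, 1.4 and 1.54 FPKM in siPRMT1 libraries, without overlap (log2 fold change 0.66 ± 0.21 (SE), adjusted p = 0.094). Of 5 inhibitors, Socs1 rose at 24 h (log2 fold change 0.70, adjusted p = 0.026) and Ptpn6 fell by 0.75 at 72 h. Of 10 sensors of nucleic acids, the RNA sensor Ifih1 rose at 24 h (0.63, adjusted p = 0.048) and Ddx58, the RNA sensor RIG-I, at 72 h (0.52, adjusted p = 0.00099). Socs3 (0.36), Ddx58 (0.39) and Adar (0.34) at 24 h and Mavs (-0.32) at 72 h had an adjusted p under 0.05 with a change under the threshold on size. Of 10 NF-kB targets, 9 were tested at 24 h, and Il6 (1.17) and Ptgs2 (0.82) rose. This was 2 of 9, against 1.95% of all genes. Ccl2 at 24 h (0.68) was called by DESeq2 (adjusted p = 0.0096) but not by edgeR (adjusted p = 0.081). Cxcl1 at 24 h (0.44, edgeR adjusted p = 0.027) was under the threshold on size. At 72 h 8 were tested, and Ccl2 (1.25) rose, 1 of 8 against 2.84% of all genes. None was called lower at either time.

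Read against the promoter matches, the calls fell on both sides. Of 15 tested members with an ISRE core, 8 were called at 24 h, and of 18 tested members with a promoter but no core 7 were. At 72 h the numbers were 8 of 13 and 6 of 16. No test was made of this difference. Ifit1, Bst2 and Gbp7, printed above, were called at both times, Stat2 at 24 h and Trim30a at 72 h, while Oasl2, Ifi44 and Xaf1 were called at both times with no core in this window.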

How the data were processed

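The 12 RNA libraries were sequenced by the authors, who used cutadapt 1.11 for trimming and HISAT2 2.1.0 for mapping; the submitters' processing notes also name RSEM 1.2.6 and mm10. Counting tool, strand setting and multiply mapped reads are not given in the sources used here. The deposited counts are whole reads per gene; the FPKM deposited beside them equal counts over length and library total to within 0.005. Library totals and the spread of 3 libraries set the precision.

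All genes were fitted with edgeR 4.0.16 (quasi-likelihood test, TMM, filterByExpr; R 4.3.3) with Benjamini-Hochberg adjustment; calls needed adjusted p under 0.05 plus a log2 change over 0.5 in either direction. On log2(FPKM + 1), limma 3.58.1 was used for genes averaging at least 1 FPKM. Scripts were tested on simulated data. Alternatives were DESeq2 1.42.0, RLE, no filter, at least 10 counts in every library, a replicate block, all libraries in 1 model, no fold threshold, single libraries left out, a pseudocount of 0.1 and, chosen after seeing the data, 2249 alternate-locus rows summed into their gene. Members and lists were chosen with earlier results of these data known. Library values are given for up to 3 members per role group with the smallest p at 24 h and 2 at 72 h, 5 by interaction p and 3 by FPKM; Znfx1 was chosen after its values were seen. Replicates differed beyond sampling noise: chi-square per gene was 50.6 and 30.8 for NC replicate 3 at 24 h against replicates 1 and 2, and 4.14 to 15.8 for the other pairs. Some items of the lists are not reported here.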

Additional observations from a re-analysis of the deposited data

Results flagged for a closer look

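For 8 members the knockdown difference itself differed between 24 h and 72 h (edgeR interaction over 12 libraries, adjusted p under 0.05 and a size over 0.5; values are the difference at 72 h minus that at 24 h, on the log2 scale). Rtp4, with -2.08, went from an increase after knockdown at 24 h to a log2 fold change of -0.04 at 72 h. Usp18 had -1 and kept its call in 4 of 12 fits without a library. Bst2 had -0.79 and kept it in 5, Lgals3bp had -0.64 and kept it in 3, and Helz2 had -0.51 and kept it in 6. Ifitm3 had 0.80 and Parp14 had 0.79, each kept in 12 of 12 fits. Trim30a had 0.53 and kept its call in 2 of 12. The causes were not tested.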

How the results depend on the processing

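No called member changed direction under any alternative that gave it a value. At 24 h the number called higher was 10 to 25 when single libraries were left out, 21 with DESeq2 and 20 with alternate-locus rows summed; on FPKM it was 5 to 17 without single libraries and 11 with no filter on low FPKM. At 72 h it was 15 to 17 without single libraries and 14 with DESeq2; on FPKM it was 2 to 5, and 3 with no filter on low FPKM. With no threshold on the fold change, 1 member (Znfx1) was called lower at 72 h. Members with a lower difference at 72 h in the interaction numbered 1 to 6 without single libraries, and those with a higher one 2 to 3. From 24 h to 72 h in NC, 24 to 30 were lower without single libraries and 16 with at least 10 counts in every library. In siPRMT1 cells the number higher was 0 with DESeq2 and with all 12 libraries in 1 model, 4 with no fold threshold and 0 to 3 without single libraries. The cause was not tested, except that stricter filters and fewer libraries test less. Replicate numbers were not shown to pair libraries (same-numbered correlations of deviations between -0.17 and 0.22); with a replicate block, 22 members were higher at 24 h and 17 at 72 h. The 12 members not tested at 72 h had too few counts to pass the filter at that time, and 5 of them were not tested at 24 h either.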
